A study of Mus musculus with 5 samples.

Results

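The genes described here are 35 imprinted genes, chosen by name from a list of genes known in the mouse to be expressed mainly from the maternal or the paternal chromosome. Of 16593 named genes on the array, 32 were on the list, with 53 probes whose annotated symbol matched. H19, Meg3 and Zdbf2 had no probe under their symbol or Entrez identifier. By their usual assignment in mouse tissues, 16 of the 35 are maternally expressed, 18 paternally expressed, and Gnas is imprinted in opposite ways by transcript. For Ascl2, Dcn, Ppp1r9a, Cd81 and Tssc4 the imprint is known mainly from placenta, and for Ube3a from neurons.

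Expression was measured on Illumina single-colour bead arrays, 1 array per sample, in 46C cells, a mouse embryonic stem cell line with a green fluorescent protein reporter at the neural gene Sox1. The ESC group (n = 2) was grown on gelatin, free of serum and feeder cells, in N2B27 medium to which LIF, BMP and 100 nM of PD173074, an inhibitor of the FGF receptor, had been added. The N2B27 48 hr group (n = 3) was the same line after trypsin treatment, washing and 48 hr in N2B27 alone. The labels do not say whether replicates came from separate cultures, and all 5 samples are of 1 line. Between 10806 and 12218 of 25697 probes were detected per array, and N2B27 48 hr replicate 1 was the dimmest (mean signal 187, against 235 to 264 on the others). Nanog and Zfp42, genes of the naive stem cell, fell (log2 change -5.07 ± 0.128, adjusted p = 6.99e-10 and -4.55 ± 0.260, adjusted p = 2.21e-07), as did the pluripotency genes Esrrb and Sox2 (26.7-fold and 4.51-fold). Pou5f1, of both naive and epiblast cells, fell 1.36-fold by 1 probe and 1.23-fold by the other. Neither passed when arrays were scaled to their median, and the other also failed with ESC replicate 1, ESC replicate 2 or N2B27 48 hr replicate 2 left out (adjusted p = 0.151, 0.0642 and 0.0587) and with no variance trend (adjusted p = 0.0685). Pou3f1 and Fgf5, genes of the epiblast, rose 44.5-fold and at least 30.7-fold, while the reporter's gene Sox1 was undetected on all 5 arrays.

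Genomic imprinting marks 1 parental copy of a gene in the germ line, usually by methylation of CpG sites in a control region, so that only the copy from the mother or the father is transcribed. Imprinted genes lie in clusters under shared control regions, and many regulate the growth of the embryo and placenta, with several paternally expressed genes promoting growth and several maternally expressed genes restraining it. Cultured embryonic stem cells are known to carry these marks, and also to lose them at some loci. The arrays measured total transcript and did not separate the parental copies, so nothing below says from which chromosome a transcript came. In bulk RNA a change in the share of cells that express a gene cannot be told apart from a change in the RNA per cell.

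After 48 hr in N2B27, more of the listed genes rose than fell, and the paternally expressed ones had the higher median change. An excess of rises was not seen in imprinted genes outside the list, where 13 were tested, 4 rose and 6 fell (median log2 change 0.033). The list was chosen with earlier results of these data known. Signals are given below as normalized log2 signal, a background-corrected intensity to which 16 was added before the logarithm. A probe was tested if it was detected (detection p under 0.05) on at least 2 of 5 arrays, and a gene was represented by its brightest tested probe. This left 29 probes of 21 imprinted genes, 65.6% of those with a probe, against 53.2% of all named genes. In limma, at an adjusted p under 0.05, 13 of the 21 rose, 2 fell and 6 did not pass. Over all 8828 genes tested 23.8% rose and 21.4% fell, 45.2% together. Rises of at least 2-fold were seen in 10 of the 21, against 5.23% of all genes, and no fall reached 2-fold, against 7.48%. The median log2 change was 0.65 over the 21 and 0.0488 over all genes. For the imprinted genes it was 0.22 over all 32 with a probe when no detection filter was set, and 0.42 without background correction. Among tested probes, 22 of 29 had all 3 N2B27 48 hr arrays above both ESC arrays and 3 had them below, where 34.6% and 28.7% of all tested probes did so. Counted by probe, 18 of 29 rose and 3 fell, against 23.0% and 20.0% of all tested probes. The 29 are 54.7% of the 53 imprinted probes, and 49.1% of all probes were tested. A gene undetected in ESC enters these counts only if it was detected in N2B27 48 hr, so they describe the tested genes and not the whole list. In 17 imprinted genes the probe was detected on all 5 arrays, and of these 10 rose and 2 fell. Of 6744 such genes on the array 1819 rose and 1406 fell (20.8%), 47.8% in either direction.

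**Figure D1:**
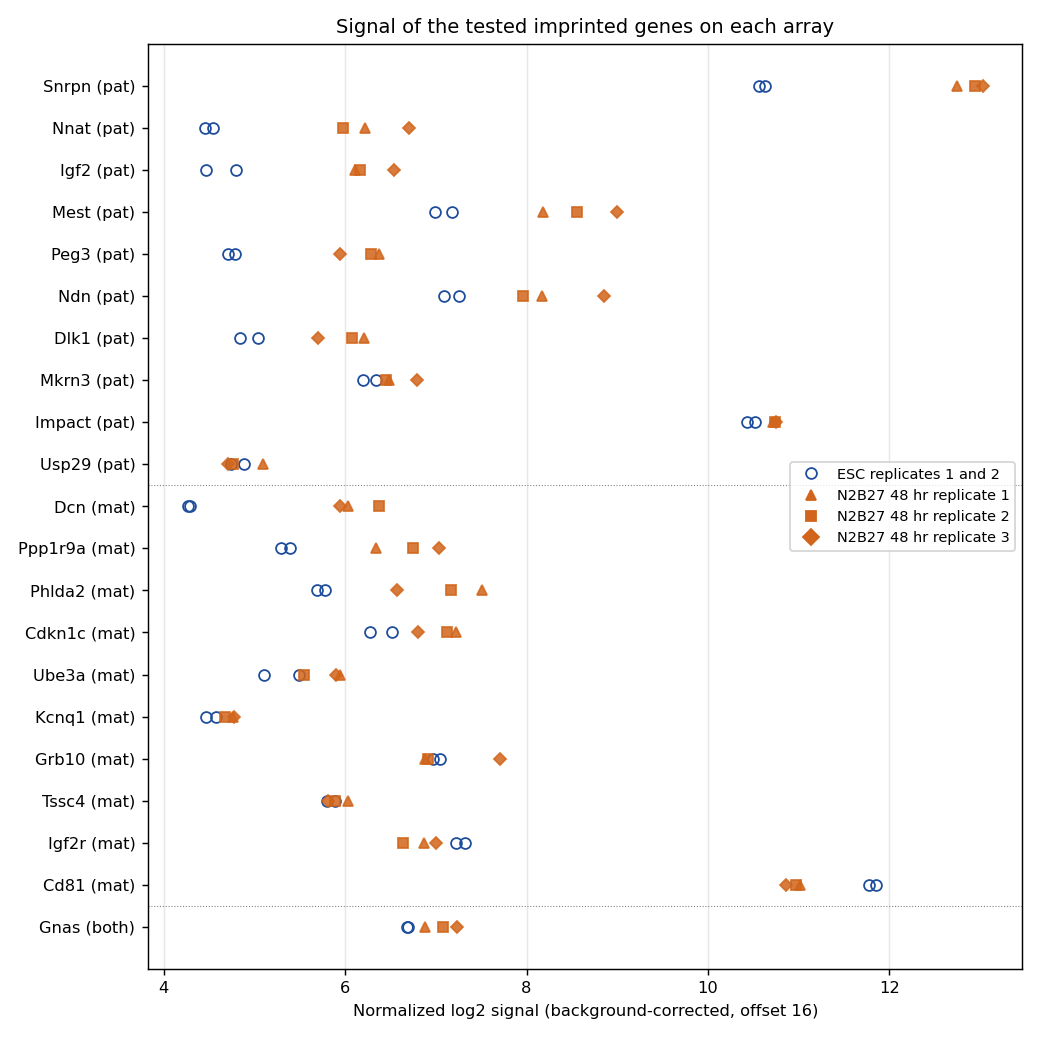
Normalized log2 signal of the brightest tested probe of each of the 21 tested imprinted genes (rows) on the 2 ESC arrays (open circles) and the 3 N2B27 48 hr arrays (filled symbols), with the usual expressed parental copy in brackets. The paternally expressed Snrpn, Nnat, Igf2, Mest, Peg3, Ndn, Dlk1, Impact and Mkrn3 stand above both ESC arrays on every N2B27 48 hr array. So do the maternally expressed Dcn, Ppp1r9a, Phlda2, Cdkn1c, Ube3a and Kcnq1, and Gnas. The maternally expressed Cd81 and Igf2r stand below both ESC arrays on every N2B27 48 hr array.

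By parental origin, 8 of 10 tested paternally expressed genes rose and 0 fell, and Usp29 and Mkrn3 did not pass. Among these 10 none fell at an unadjusted p under 0.05 either, since all 10 changes were above 0. The change of Usp29, though, turned below 0 in 4 of 17 alternative settings. Parental origin was not assigned to the imprinted genes outside the list, of which 6 fell, so these counts do not cover them. Of 10 tested maternally expressed genes 5 rose, 2 fell and 3 did not pass. The median log2 change was 1.31 in the paternally expressed and 0.36 in the maternally expressed genes. Without the detection filter, when the undetected genes enter, these medians were 0.26 and 0.12. With the filter, but without genes whose imprint is known mainly from placenta or neurons, 5 maternally expressed genes were tested. Of these 2 rose, 1 fell and 2 did not pass (median 0.22). Restricted to probes detected on all 5 arrays, 6 of 8 paternally expressed genes rose (median 1.11), and 4 of 8 maternally expressed genes rose and 2 fell (median 0.33). Among all tested, rises of at least 2-fold were seen in 7 paternally and 3 maternally expressed genes. Leaving out ESC replicate 1 left 3 maternally expressed genes that rose, and leaving out ESC replicate 1, ESC replicate 2 or N2B27 48 hr replicate 2 left 1 that fell. The difference between the classes was not tested, because members of a cluster share a control region and are not independent.

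The size of the change in dim genes depended on the treatment of background. The log2 change of Nnat ran from 0.80 without background correction to 3.05 with an offset of 1, and for Dcn, Igf2, Peg3, Ppp1r9a, Phlda2 and Dlk1 the value without background correction was likewise more than 1.5 times smaller. By the brightest tested probe of each gene these calls held in each setting that tested them. The call of the dimmer Dcn probe did not hold in all. With arrays scaled to their median, the middle of all log2 changes shifted to -0.106. The median of the imprinted genes was then 0.42, with 10 that rose and 1 that fell.

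**Figure D2:**
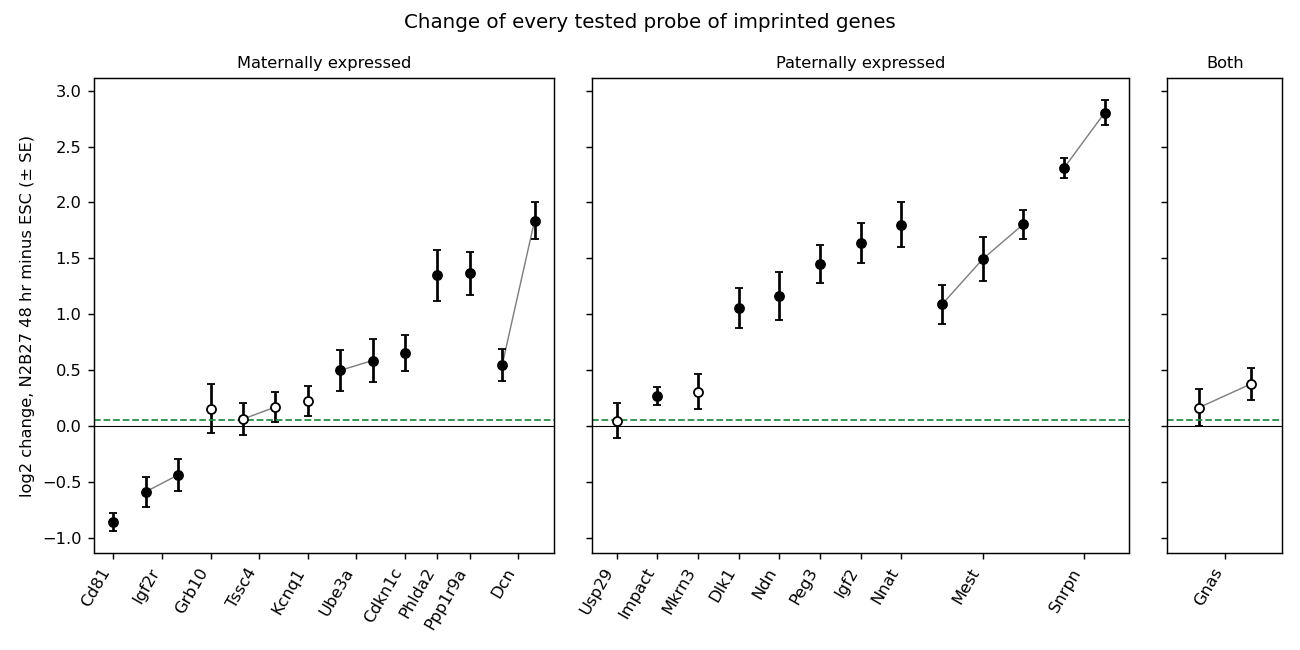
Log2 change (N2B27 48 hr minus ESC) with its standard error for each of the 29 tested probes, grouped by gene and by parental origin, with lines joining probes of 1 gene. Filled points passed an adjusted p under 0.05, and the dashed line is the median of all genes (0.0488). Both Snrpn probes are highest, and the paternally expressed points lie above 0, though that of Usp29 turned below 0 in 4 alternative settings.

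The largest rise among the 21 genes was that of Snrpn, which encodes SmN, a core protein of spliceosomal particles, and whose promoter lies in the control region of the Prader-Willi and Angelman cluster. The brighter probe read 10.57 and 10.63 in ESC and 12.75, 12.94 and 13.03 in N2B27 48 hr. The other read 5.73 and 5.75 in ESC and 8.56, 8.50 and 8.56 in N2B27 48 hr. Both probes separated the groups with no overlap, and the spread within each group was small beside the gap. By the brighter probe Snrpn was 4.95-fold higher (2.31 ± 0.0896 SE, adjusted p = 1.30e-08), and by the other 6.98-fold (2.80 ± 0.114 SE, adjusted p = 1.86e-08). Its near copy Snrpb, the gene of the general protein SmB, was 1.44-fold higher by 1 of its probes (0.53 ± 0.105, adjusted p = 0.00207) and 1.34-fold by the other (0.42 ± 0.0765, adjusted p = 0.00118). Neither Snrpb probe passed when arrays were scaled to their median, and the first did not without ESC replicate 1 (adjusted p = 0.0572). Whether the Snrpn probes also bind Snrpb transcripts was not tested. RefSeq (GRCm38.p6) places 4 start sites at Snrpn, with 2 to 7 CpG in each window of 300 bases. The window richest in CpG is printed because it holds TGCCGC, the hexamer bound by the imprint reader ZFP57 when its CpG is methylated. Capitals mark that hexamer, which here lies on the opposite strand and so reads GCGGCA.
Snrpn promoter (GRCm38.p6 chr7:60005150-60005449, minus strand): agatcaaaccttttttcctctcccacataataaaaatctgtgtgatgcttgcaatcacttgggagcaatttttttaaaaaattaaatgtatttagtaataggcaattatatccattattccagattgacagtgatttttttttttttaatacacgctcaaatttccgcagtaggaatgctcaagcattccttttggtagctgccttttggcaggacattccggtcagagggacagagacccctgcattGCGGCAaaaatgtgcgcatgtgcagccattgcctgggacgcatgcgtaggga

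Of the other genes of that cluster, Ndn and Ube3a rose, Mkrn3 did not pass, and Magel2 and Peg12 were not detected. Ndn, the gene of necdin, a growth suppressor of the MAGE family expressed from the paternal copy, read 7.25 and 7.09 in ESC and 8.17, 7.97 and 8.86 in N2B27 48 hr. Its N2B27 48 hr values were all higher, and replicate 3 stood well above the other two. Ndn was 2.24-fold higher (1.16 ± 0.216 SE, adjusted p = 0.00131). Mkrn3, a paternally expressed makorin gene whose product is a ubiquitin ligase, read 6.20 and 6.34 in ESC and 6.49, 6.45 and 6.80 in N2B27 48 hr. These groups did not overlap, yet the change did not pass (0.31 ± 0.154 SE, adjusted p = 0.133). Ube3a, the ubiquitin ligase gene whose loss causes Angelman syndrome, is expressed from the maternal copy in neurons and from both copies in most other cells. Its brighter tested probe read 5.11 and 5.49 in ESC and 5.95, 5.55 and 5.90 in N2B27 48 hr, and ESC replicate 2 came close to the lowest N2B27 48 hr array. Both tested probes rose slightly (0.50 ± 0.181 SE, adjusted p = 0.0463, and 0.58 ± 0.190 SE, adjusted p = 0.0291). These calls were fragile. Without ESC replicate 1, ESC replicate 2 or N2B27 48 hr replicate 1 the first probe had log2 changes of 0.30, 0.68 and 0.44 (adjusted p = 0.383, 0.0569 and 0.104), and without N2B27 48 hr replicate 3 0.44 (adjusted p = 0.0705). The second probe lost its call without ESC replicate 1, ESC replicate 2, N2B27 48 hr replicate 1 or N2B27 48 hr replicate 2 (adjusted p = 0.264, 0.0581, 0.0637 and 0.0603). With median scaling neither passed (0.30 and 0.44, adjusted p = 0.361 and 0.0954), nor did either without the detection filter (adjusted p = 0.0871 and 0.0608), and the first also failed with cyclic loess (0.44, adjusted p = 0.0702). The 2 other Ube3a probes were detected on 0 arrays, as were the probes of the paternally expressed genes Magel2, a MAGE family member, and Peg12, a relative of the GSK3-binding FRAT proteins. Atp10a, a phospholipid transporter gene next to Ube3a, was undetected in ESC and at least 2.12-fold higher in N2B27 48 hr (1.20 ± 0.154, adjusted p = 0.000103).

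In the Peg3 cluster Peg3 rose, and its paternally expressed neighbour Usp29 did not pass. Peg3, a zinc finger gene that affects fetal growth and maternal behaviour, read 4.78 and 4.71 in ESC and 6.37, 6.29 and 5.94 in N2B27 48 hr. Every N2B27 48 hr array lay more than 1 log2 unit above both ESC arrays, and replicate 3 was the lowest of them. Peg3 was 2.73-fold higher (1.45 ± 0.167 SE, adjusted p = 4.82e-05). Usp29, a deubiquitinase gene transcribed in the opposite direction, read 4.88 and 4.74 in ESC and 5.10, 4.76 and 4.71 in N2B27 48 hr. Its groups overlapped, and the change did not pass (0.05 ± 0.158 SE, adjusted p = 0.840). That value fell below 0 under median scaling, under cyclic loess, and without ESC replicate 2 or N2B27 48 hr replicate 1 (-0.06, -0.0041, -0.02 and -0.08), passing in none. Whether Peg3 and Usp29 differ in change was not tested. Zim1, a maternally expressed zinc finger gene of the cluster, was detected on 0 arrays. The RefSeq start sites of Peg3 and Usp29 lie 164 bases apart on opposite strands, and their promoter windows share 263 bases. The Peg3 window is printed to show how close they are, with the 165 bases from one start site to the other in capitals. It holds 13 CpG and no TGCCGC on either strand.
Peg3 promoter (GRCm38.p6 chr7:6730370-6730669, minus strand): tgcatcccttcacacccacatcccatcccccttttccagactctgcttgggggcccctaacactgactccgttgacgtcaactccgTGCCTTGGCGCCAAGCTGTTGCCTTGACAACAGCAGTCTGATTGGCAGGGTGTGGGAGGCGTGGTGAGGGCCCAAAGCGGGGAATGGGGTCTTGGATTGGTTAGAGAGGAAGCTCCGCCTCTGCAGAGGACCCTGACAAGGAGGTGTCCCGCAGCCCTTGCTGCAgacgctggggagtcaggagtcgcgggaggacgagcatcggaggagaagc

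Mest, also called Peg1, encodes a protein of the hydrolase fold and is expressed from the paternal copy in embryonic mesoderm. All 3 of its probes rose. The brightest read 7.18 and 6.99 in ESC and 8.18, 8.56 and 8.99 in N2B27 48 hr. Its N2B27 48 hr values lay above ESC and were themselves spread over 0.8 log2 units, with replicate 3 highest. By this probe Mest was 2.81-fold higher (1.49 ± 0.195 SE, adjusted p = 0.000115), and by the other probes 3.49-fold (1.80 ± 0.131) and 2.12-fold (1.09 ± 0.176). Nnat, the paternally expressed gene of neuronatin, a small membrane proteolipid of brain and endocrine tissue, read 4.46 and 4.55 in ESC and 6.22, 5.98 and 6.71 in N2B27 48 hr by 1 of its probes. It was undetected on both ESC arrays and detected on all 3 N2B27 48 hr arrays, so its fold is a lower bound. Nnat was at least 3.24-fold higher (1.80 ± 0.203 SE, adjusted p = 4.03e-05). The other Nnat probe was detected on 0 arrays. Nnat lies within an intron of Blcap, which in these cells was 1.25-fold lower (-0.33 ± 0.118, adjusted p = 0.0449). Blcap did not hold its call when any of 4 arrays was left out, ESC replicate 1 or 2 or N2B27 48 hr replicate 1 or 2 (adjusted p = 0.198, 0.217, 0.0538 and 0.103), nor with median scaling (-0.57, adjusted p = 0.121) or without the detection filter (adjusted p = 0.0816). Promoter windows of Mest and Nnat are printed because both hold the ZFP57 hexamer, in capitals and again on the opposite strand, and 17 CpG each. The Mest window holds it at 2 positions.
Mest promoter (GRCm38.p6 chr6:30737800-30738099, plus strand): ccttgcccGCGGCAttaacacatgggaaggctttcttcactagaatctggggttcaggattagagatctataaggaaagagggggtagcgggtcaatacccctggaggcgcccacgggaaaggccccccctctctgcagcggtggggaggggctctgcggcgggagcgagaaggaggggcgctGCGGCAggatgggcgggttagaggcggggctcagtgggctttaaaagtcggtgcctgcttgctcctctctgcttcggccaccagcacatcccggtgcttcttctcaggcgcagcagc
Nnat promoter (GRCm38.p6 chr2:157559828-157560127, plus strand): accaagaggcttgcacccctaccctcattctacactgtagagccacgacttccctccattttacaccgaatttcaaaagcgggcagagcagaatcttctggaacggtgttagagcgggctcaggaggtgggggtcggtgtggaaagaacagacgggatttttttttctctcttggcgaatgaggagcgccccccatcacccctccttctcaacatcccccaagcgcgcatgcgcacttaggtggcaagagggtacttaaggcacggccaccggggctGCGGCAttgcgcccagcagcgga

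The growth factor gene Igf2 rose, and Igf2r, whose receptor carries IGF2 to lysosomes for breakdown, fell. Igf2, paternally expressed and paired in its cluster with the unmeasured H19, read 4.47 and 4.80 in ESC and 6.11, 6.16 and 6.54 in N2B27 48 hr. It was detected on 1 of 2 ESC arrays and on all 3 N2B27 48 hr arrays, and the groups were far apart. Igf2 was 3.11-fold higher (1.64 ± 0.179 SE, adjusted p = 3.24e-05). Igf2r, maternally expressed, read 7.22 and 7.32 in ESC and 6.86, 6.64 and 7.00 in N2B27 48 hr by its brighter probe and 6.76 and 6.68 in ESC and 6.19, 6.13 and 6.08 in N2B27 48 hr by the other. By both probes every N2B27 48 hr array was below both ESC arrays. The falls were 1.36-fold (-0.44 ± 0.142 SE, adjusted p = 0.0280) and 1.51-fold (-0.59 ± 0.135 SE, adjusted p = 0.00476). The brighter probe lost its call without ESC replicate 1, ESC replicate 2 or N2B27 48 hr replicate 2 (log2 changes -0.49, -0.39 and -0.34, adjusted p = 0.106, 0.197 and 0.0967) or under median scaling (-0.67, adjusted p = 0.0522). The other lost it without ESC replicate 1 (adjusted p = 0.0629).

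Among 15 listed genes of IGF signalling that are not imprinted members, 9 were tested, and 3 rose, 1 fell and 5 did not pass (median 0.16), a share called close to the 45.2% of all genes. The binding protein genes Igfbp5 and Igfbp4 rose 4.30-fold (2.11 ± 0.158, adjusted p = 1.80e-06) and 2.71-fold (1.44 ± 0.142, adjusted p = 1.51e-05), and Igfbp2 fell 2.30-fold (-1.20 ± 0.107, adjusted p = 6.82e-06). The receptor gene Igf1r did not pass (0.39 ± 0.149, adjusted p = 0.0550). Lin28a, an RNA-binding protein gene that acts on Igf2 transcripts in muscle, rose 3.04-fold. One of 4 RefSeq windows of Igf2 holds the ZFP57 hexamer, and it is the window with 14 CpG.

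Dlk1, a paternally expressed gene of a transmembrane Notch ligand relative, read 5.04 and 4.85 in ESC and 6.21, 6.08 and 5.70 in N2B27 48 hr. The groups did not overlap, and replicate 3 was again the lowest of the N2B27 48 hr arrays. Dlk1 was 2.08-fold higher (1.06 ± 0.178 SE, adjusted p = 0.000694). Dio3, the thyroid hormone deiodinase gene at the far side of the same cluster, fell 1.64-fold (-0.71 ± 0.183, adjusted p = 0.00886), a call not held when ESC replicate 1 or 2 was left out (adjusted p = 0.0833 and 0.0541). Impact, the paternally expressed gene of an inhibitor of the amino acid sensor GCN2, read 10.43 and 10.52 in ESC and 10.72, 10.74 and 10.75 in N2B27 48 hr. The rise was small and the groups lay close (1.20-fold, 0.26 ± 0.0791 SE, adjusted p = 0.0196). Leaving out ESC replicate 1, ESC replicate 2 or N2B27 48 hr replicate 2 ended the call (adjusted p = 0.189, 0.0707 and 0.0524), as did median scaling (0.078, adjusted p = 0.877), cyclic loess (0.16, adjusted p = 0.131) and a fit with no variance trend (adjusted p = 0.0866).

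Maternally expressed genes of the Kcnq1 cluster went both ways. Phlda2, the gene of a small pleckstrin-homology protein that limits placental growth, read 5.69 and 5.78 in ESC and 7.50, 7.17 and 6.58 in N2B27 48 hr. All N2B27 48 hr values were higher, and replicate 3 was the lowest. Phlda2 was 2.54-fold higher (1.35 ± 0.227 SE, adjusted p = 0.000691). Cdkn1c, a cyclin-dependent kinase inhibitor gene, read 6.27 and 6.52 in ESC and 7.22, 7.12 and 6.80 in N2B27 48 hr. The gap between the groups was about as wide as the spread within them, and Cdkn1c was 1.57-fold higher (0.65 ± 0.160 SE, adjusted p = 0.00703). With ESC replicate 1 left out the change was 0.53 (adjusted p = 0.0975), and with median scaling it was 0.42 (adjusted p = 0.271), so neither passed.

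Cd81, the gene of a tetraspanin of the cell surface in the same cluster, fell. It read 11.77 and 11.85 in ESC and 11.01, 10.97 and 10.86 in N2B27 48 hr, tight within each group and with no overlap. Cd81 was 1.82-fold lower (-0.86 ± 0.0797 SE, adjusted p = 8.77e-06), the largest fall among the 21. Its neighbour Tssc4, a nuclear protein gene, read 5.89 and 5.80 in ESC and 6.03, 5.88 and 5.82 in N2B27 48 hr by its brighter probe, and the groups overlapped. Neither of its 2 probes passed (0.06 ± 0.146 SE, adjusted p = 0.777, and 0.17 ± 0.134 SE, adjusted p = 0.345), and the brighter turned below 0 under median scaling and cyclic loess (-0.17 and -0.022). The potassium channel gene Kcnq1 was undetected in ESC and detected on all 3 N2B27 48 hr arrays by 1 of 2 probes, at 4.46 and 4.57 in ESC and 4.76, 4.68 and 4.78 in N2B27 48 hr, and did not pass (0.22 ± 0.132 SE, adjusted p = 0.205). Ascl2, a basic helix-loop-helix gene required in trophoblast, was detected on 1 array, and the transporter gene Slc22a18 on 0. Of 8 trophoblast markers 2 were tested and both fell, Tfap2c 25.5-fold and Gata3 at least 2.62-fold. Over 12 probes of that list the summed signal ran from 1931 to 1951 in ESC and from 287 to 290 in N2B27 48 hr. Of these, 3 probes are for Tfap2c, the brightest marker of the list in ESC (mean 10.2). The probes of Eomes, Elf5, Hand1 and Tpbpa were detected on 0 arrays, and those of Cdx2 and Plac1 on 0 ESC arrays. Whether either group held trophoblast cells was not tested, nor was their part in the Kcnq1 cluster's changes.

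In the Peg10 and Sgce cluster only Ppp1r9a was tested. It encodes neurabin, an actin-binding partner of protein phosphatase, and is maternally expressed in placenta and some embryonic tissues. It read 5.29 and 5.40 in ESC and 6.34, 6.75 and 7.04 in N2B27 48 hr. The groups were far apart, with replicate 3 highest. Ppp1r9a was 2.58-fold higher (1.36 ± 0.195 SE, adjusted p = 0.000221). Peg10, a paternally expressed gene derived from a retrotransposon, and Asb4, a maternally expressed gene of an ankyrin and SOCS-box protein, were detected on 0 arrays, and Sgce, the paternally expressed gene of epsilon-sarcoglycan, on 1. Pon2, a paraoxonase gene in the same region, averaged 4.90 in ESC and 7.12 in N2B27 48 hr, a 4.65-fold rise (2.22 ± 0.162, adjusted p = 1.46e-06).

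Dcn, the gene of the matrix proteoglycan decorin, read 4.29 and 4.27 in ESC and 6.03, 6.38 and 5.94 in N2B27 48 hr by its brighter probe. It was undetected in ESC and detected on all 3 N2B27 48 hr arrays, and the groups were far apart. Dcn was at least 2.84-fold higher (1.84 ± 0.166 SE, adjusted p = 7.48e-06). Its other probe, detected on 2 N2B27 48 hr arrays, rose at least 1.21-fold (0.54 ± 0.142 SE, adjusted p = 0.00980), but not when ESC replicate 1 or 2 was left out (adjusted p = 0.132 and 0.0904). Dcn is a common fibroblast gene. Of 10 other fibroblast markers 3 were tested, and Thy1 and Acta2 rose and Fbln2 fell. The 16 probes of the 10 markers summed to 381 to 395 in ESC and to 921 to 1302 in N2B27 48 hr. Of these probes 4 are for Acta2, whose brightest tested probe averaged 4.29 in ESC and 8.80 in N2B27 48 hr. Thy1 averaged 5.59 in ESC and 7.89 in N2B27 48 hr. The collagen genes Col1a1, Col1a2 and Col3a1 were detected on 0 arrays. Whether either group held fibroblasts was not tested. Igf2 and H19 are known to be active in extraembryonic endoderm. Of 8 markers of that tissue 2 were tested and 0 changed by limma, also at an unadjusted p under 0.05, and the summed signal was 227 to 235 in ESC and 222 to 234 in N2B27 48 hr. Gata4, Gata6, Sox17 and Foxa2 were detected on 0 arrays. Of the tested markers, Ttr averaged 4.57 in both groups and was detected on 1 array of each. Sox7 averaged 4.70 in ESC and 4.50 in N2B27 48 hr, where it was detected on 0 arrays. Both lay near background, and whether either group held extraembryonic endoderm was not tested.

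Grb10, an adaptor gene that restrains insulin and IGF receptor signalling, read 7.05 and 6.97 in ESC and 6.88, 6.91 and 7.70 in N2B27 48 hr. N2B27 48 hr replicate 3 stood 0.8 log2 units above the other two, which lay just below ESC. The change did not pass (0.15 ± 0.220 SE, adjusted p = 0.614), and it was below 0 without N2B27 48 hr replicate 3 (-0.11), with the replicate number as a block (-0.11) and under median scaling (-0.086). Its neighbours fell steeply. Cobl, an actin nucleator gene, averaged 8.60 in ESC and 5.08 in N2B27 48 hr and fell 11.5-fold (-3.52 ± 0.180, adjusted p = 9.22e-08), and Ddc, the DOPA decarboxylase gene imprinted in heart, averaged 9.25 in ESC and 6.04 in N2B27 48 hr and fell 9.21-fold (-3.20 ± 0.170, adjusted p = 1.23e-07). Gnas, which encodes the stimulatory G protein subunit and several imprinted transcripts, read 6.69 and 6.68 in ESC and 6.89, 7.07 and 7.23 in N2B27 48 hr by its brightest probe. The groups did not overlap and the change fell just short of the threshold (0.38 ± 0.140 SE, adjusted p = 0.0508). It passed under 6 of 17 alternatives, among them the authors' normalized values (0.28, adjusted p = 0.0440) and without N2B27 48 hr replicate 1 (0.47, adjusted p = 0.0206). A further Gnas probe did not pass, and the other 2 of its 4 probes were detected on 0 arrays.

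Besides those named above, the probes of Plagl1, a zinc finger gene of an imprinted gene network, and Rasgrf1, a Ras exchange factor gene of neurons, were detected on 0 arrays, and that of Nap1l5, a nucleosome assembly gene, on 1. In all 11 genes with a probe were not tested. A signal below background leaves unknown whether the gene was transcribed.

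**Figure D3:**
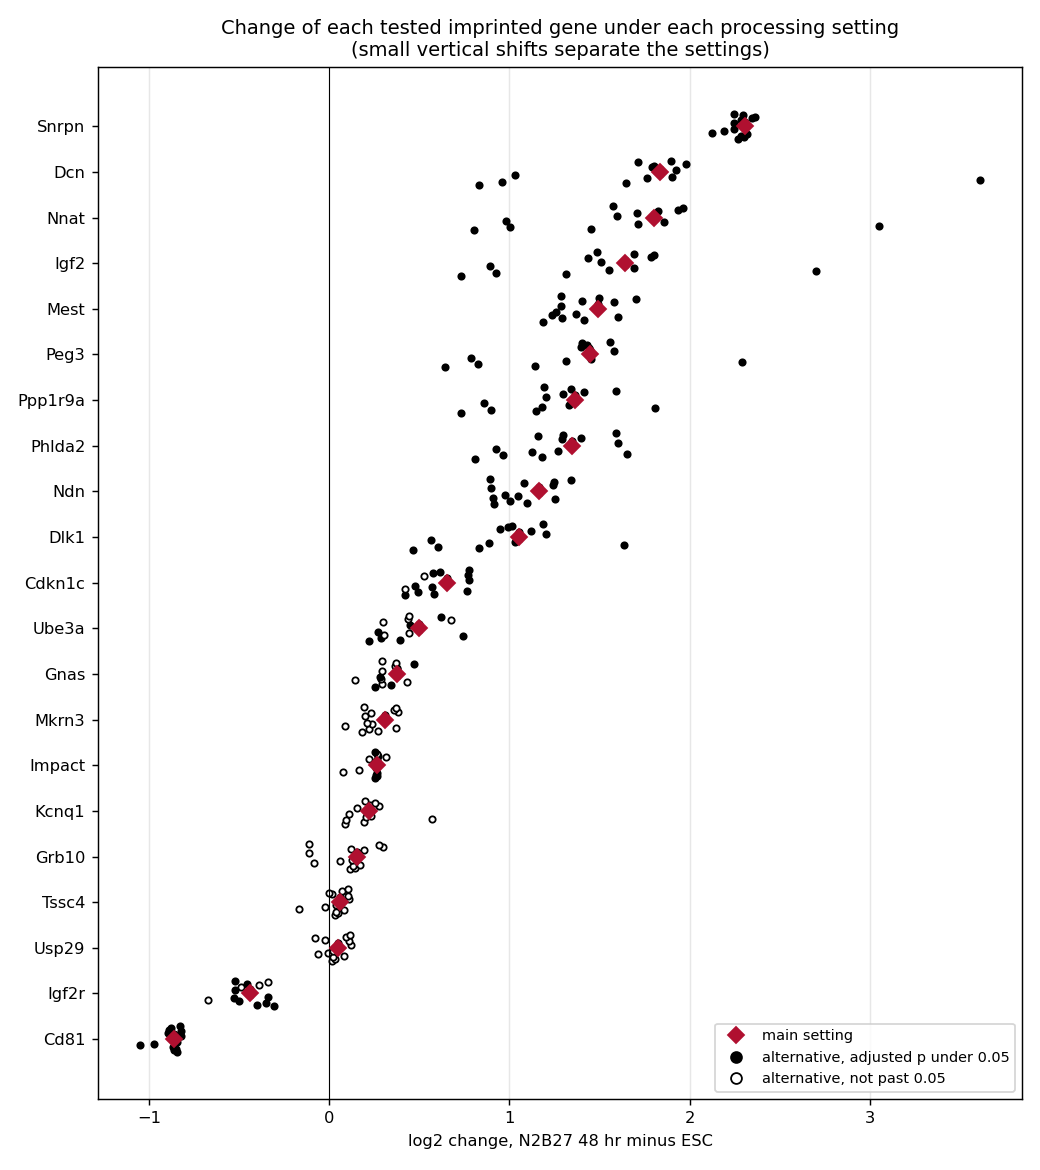
Log2 change (N2B27 48 hr minus ESC) of each of the 21 tested imprinted genes by its brightest tested probe, in the main setting (diamonds) and in up to 17 alternative settings (circles, filled where the adjusted p was under 0.05). Snrpn stays between 2.12 and 2.36 and Cd81 between -1.05 and -0.82, while Grb10, Tssc4 and Usp29 straddle 0.

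The 3 N2B27 48 hr arrays did not rank the imprinted genes alike. Replicate 3 was the highest of the 3 in 12 of 21 tested genes (57.1%), against 37.0% of all genes, and in 7 of the 13 that rose, against 45.0% of all genes that rose. Grb10, Ndn, Nnat and Mest were highest there, whereas Peg3, Dlk1, Phlda2 and Cdkn1c were lowest there. Without replicate 3, 12 of the 21 rose and 2 fell. Summed neural markers were 193, 209 and 246 on replicates 1, 2 and 3, and summed fibroblast markers 1066, 921 and 1302. Of the 7 neural probes 5 were detected on 0 arrays, as were 8 of the 16 fibroblast probes. Nes, the only neural marker tested, did not pass (-0.04 ± 0.199, adjusted p = 0.880). The part of either list in this ranking was not tested.

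Of 25 listed genes that read, write or erase imprints, 22 had a probe and 16 were tested, and 5 rose, 5 fell and 6 did not pass (median 0.0688), where 23.8% of all genes rose and 21.4% fell. ZFP57 recruits TRIM28 and the histone methyltransferase SETDB1 to methylated imprints. Zfp57 had no probe, Trim28 fell 1.67-fold (-0.74 ± 0.0844, adjusted p = 4.35e-05), and Setdb1 fell 1.31-fold (-0.39 ± 0.124, adjusted p = 0.0251). Setdb1 did not hold its call with ESC replicate 1, ESC replicate 2 or N2B27 48 hr replicate 2 left out or with median scaling (adjusted p = 0.186, 0.111, 0.0889 and 0.0836). Dppa3, which protects imprints in the early embryo, fell 6.19-fold (-2.63 ± 0.297, adjusted p = 4.09e-05), and Dnmt3l, a cofactor in setting imprints in germ cells, fell 3.68-fold (-1.88 ± 0.469, adjusted p = 0.00766). Kdm1b, a histone demethylase gene needed for imprints in oocytes, fell 1.75-fold by 1 of 2 tested probes. The maintenance genes Dnmt1 and Uhrf1 did not pass (-0.10 ± 0.113, adjusted p = 0.515, and -0.02 ± 0.0977, adjusted p = 0.894), nor did Ctcf, the insulator gene of the H19 and Igf2 cluster (0.18 ± 0.116, adjusted p = 0.237). Dnmt3b, a de novo methyltransferase gene, rose 13.3-fold. Smchd1, a chromatin silencing gene of several imprinted clusters, rose 2.25-fold (1.17 ± 0.114, adjusted p = 1.37e-05), and Tdg, a thymine glycosylase gene of demethylation, 2.20-fold (1.14 ± 0.113, adjusted p = 1.56e-05). Ehmt1, a histone methyltransferase gene, rose 2.21-fold by its brightest probe (1.15 ± 0.0929, adjusted p = 3.28e-06), but only 2 of its 4 tested probes rose.

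RefSeq promoter windows, from 250 bases before to 50 after a start site, were examined for 28 of the 35 imprinted genes, 44 windows in all. For these genes chromosome 18 was left out, so Impact, which rose, is not among the 28. The counts over all windows include that chromosome. The median window of these genes held 15.5 CpG, against 7 over all 32851 windows. TGCCGC was found on either strand in 11 of the 44 windows (25.0%) and in 11.6% of all windows. Among the 11, the Mest windows that start at 30737800 and 30737803 overlap and hold the same matches. Both were counted, here and among the windows rich in CpG. The hexamer contains a CpG, and among the 10841 windows with at least 16 CpG 25.7% held it, against 7 of 22 such windows of imprinted genes. Among genes with a window examined, the hexamer was present in 4 of 10 that rose (Igf2, Mest, Nnat and Snrpn) and 0 of 2 that fell. It was also present in 1 of 5 that did not pass (Grb10) and 3 of 9 that were not tested (Nap1l5, Plagl1 and Zim1). Meg3 and Zdbf2, which have no probe, held it as well. Igf2, Mest and Snrpn have more windows than Igf2r and Cd81, which fell, and so more chances of a match. No share per gene was counted over all genes, so the counts by call have no background beside them. A match is a stretch of letters and not a bound site, and no methylation was measured.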

How the data were processed

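Total RNA of 5 samples of the 46C line was taken up in Trizol and converted to biotin-labelled cRNA, per the labels' protocols. The authors deposited a signal intensity per probe and array, on a linear scale and not normalized, with a detection p-value for each, per the file headers; the submitters' processing notes name BeadStudio, and its version and any background subtraction are not given in the sources used here. The deposited second table holds the authors' normalized intensity values (column medians 65.2 to 65.3), whose method and any centring are not stated; the sorted values of its columns differ by at most 1.35%, and it served as an alternative.

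Intensities were background-corrected with limma 3.58.1 in R 4.3.3 (nec, control parameters inferred from detection p-values, offset 16), taken to log2 and quantile normalized. Fold changes on this log2(value + 16) scale understate changes of dim genes. Probes detected (p under 0.05) on at least 2 of 5 arrays were tested, 12605 of 25697, by lmFit and eBayes with a trend, two-sided, and p-values were adjusted by Benjamini-Hochberg across these probes at a threshold of 0.05. Errors after ± are SEs of the log2 change (median 0.145); the number of arrays limits the precision, and the p-values reflect spread between samples that may differ only technically. "At least N-fold" is used where no array of a group detected the probe, and takes there, per array, the lowest detected value if it exceeds the probe's.

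Symbols came from the platform annotation (23978 probes with 1 symbol, 1719 unnamed here), updated through Entrez identifiers in a RefSeq table of GRCm38.p6 (23962 matched). The files name no genome build, and only promoter windows carry coordinates. Every listed imprinted gene is named, with array values for those past the threshold, and of each other gene list the 4 largest rises and falls past it. Setdb1, Trappc9, Blcap, Snrpb, Nap1l4, Commd1, Igf1r, Dnmt1, Uhrf1 and Ctcf were added after their values were seen. Members and lists were chosen with earlier results of these data known. The pipeline was tested on simulated data. No chip or scan date is given. The alternatives were other backgrounds, offsets, scalings and filters, the authors' values, leaving out each array, a replicate block and no variance trend. Figures were drawn with matplotlib 3.10.9.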

Additional observations from a re-analysis of the deposited data

How the results depend on the processing

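Of 21 imprinted probes that passed the test, 14 kept direction and call in each of the 17 refits that tested them, and 0 changed sign. Calls lost are given with Ube3a, Impact, Igf2r, Cdkn1c and the dimmer Dcn probe above. Fits that leave out an ESC replicate take the spread of the lone one from the other group. Counts and medians that moved were as follows. Over all genes, 760 rose under median scaling beside 1802 that fell, and leaving out 1 array gave 1272 to 2229 that rose and 1068 to 2005 that fell. Of the imprinted genes that fell, 1 of 2 was left under median scaling and leaving out 1 array gave 1 to 2, and 3 fell when every tested probe was counted. These are the maternally expressed genes that fell. Maternally expressed genes that rose numbered 3 under median scaling, and 3 to 5 with 1 array left out. The maternally expressed median was 0.17 without background correction, 0.21 and 0.65 with offsets of 50 and 1, 0.20 with the authors' values and 0.12 without the detection filter. The paternally expressed median was 0.69 without background correction, 1.12 with normexp lacking control information, 0.87 and 1.62 with offsets of 50 and 1, 1.07 under median scaling, 0.84 with the authors' values, 0.26 without the detection filter, 1.11 with detection on all 5 arrays and 1.45 when every tested probe was counted. The median of all genes changed sign under median scaling (-0.106) and cyclic loess (-0.010). Among probes that did not pass, signs turned under median scaling for Grb10 (-0.086), Usp29 (-0.064), the brighter Tssc4 probe (-0.167) and the dimmer tested Gnas probe (-0.017), and under cyclic loess for Usp29 (-0.0041) and that Tssc4 probe (-0.022). Leaving out 1 array, Grb10 ran from -0.11 to 0.30, Usp29 from -0.080 to 0.12, and that Gnas probe from -0.010 to 0.33, and with the replicate block Grb10 was -0.11. The labels give no pairing of samples by replicate number, and same-numbered arrays did not deviate together (r = -0.085 and -0.0275). With 2 ESC arrays the deviations of one mirror those of the other, so this check cannot exclude a pairing. The replicate block, which leaves 1 residual degree of freedom, gave 13 imprinted genes that rose and 2 that fell. The cause of these differences was not tested, except that fits without the filter add probes near background. Signals near background limit what can be said of dim genes.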

Other observations

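Beyond the listed members, 40 further genes reported as imprinted in some mouse tissue were examined. Of these 30 had a probe and 13 were tested, and 4 rose, 6 fell and 3 did not pass (median 0.033), against 23.8% and 21.4% of all genes. Besides Pon2 and Atp10a, Inpp5f, an inositol phosphatase gene, rose 1.97-fold (0.98 ± 0.191, adjusted p = 0.00183) and Dhcr7, the last enzyme of cholesterol synthesis, 1.82-fold (0.86 ± 0.143, adjusted p = 0.000613). Besides Cobl, Ddc, Dio3 and Blcap, the amino acid transporter gene Slc38a4 fell 1.59-fold (-0.67 ± 0.211, adjusted p = 0.0246) and Trappc9, a vesicle tethering gene, 1.55-fold (-0.64 ± 0.183, adjusted p = 0.0165). Without ESC replicate 1 or 2 neither passed (adjusted p = 0.250 and 0.0532 for Slc38a4, 0.0635 and 0.182 for Trappc9), and Slc38a4 also did not pass without N2B27 48 hr replicate 2 or 3 (adjusted p = 0.0927 and 0.0514). Nap1l4 and Commd1, which lie beside imprinted genes, did not pass (0.11 ± 0.0811, adjusted p = 0.313, and 0.03 ± 0.105, adjusted p = 0.832).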
